A study of Homo sapiens with 20 samples.

Results

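The 37 genes described here form the machinery of autophagy and its cargo receptors. They were chosen by symbol: a probe set, the group of array probes that reads one transcript, belonged to the set if the platform annotation gave it exactly 1 of the 37 symbols. This held for 39 of 33268 probe sets, and all 37 genes, out of 18416 named genes on the array, had a probe set of their own. ATG2B and ATG4B had 2 each, and the one with the higher mean signal was used for each gene. One further probe set, shared by MAP1LC3B and its near-identical paralog MAP1LC3B2, was left out, and the probe set kept for MAP1LC3B may still read both.

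The labels describe 5 established cell lines of classical Hodgkin lymphoma, a tumour of B cell origin: L428, KM-H2, UHO-1, SUP-HD1 and L1236. Each of them stably carried FOXO1(3A)ER. In this protein a mutant of the transcription factor FOXO1 that is always active is fused to the part of the oestrogen receptor that binds ligand, and it stays inactive until 4-hydroxytamoxifen (4-OHT) is added. In each line, cells that received 4-OHT for 24 h were compared with cells of the same line, carrying the same fusion protein, that received ethanol vehicle for 24 h. Each of the 10 groups was measured on 2 arrays, 20 in all. The labelled dose of 200 µM stands in a protocol text that names another fusion protein in KM-H2 and L428, so it is quoted as labelled only. No line lacking the fusion protein was given 4-OHT among the arrays used here, so effects of 4-OHT and of FOXO1 cannot be told apart. No source used here says whether a line was a clone or a pool. Per the labels the experiment was done 2 times. Separate cultures for the arrays of one group are not otherwise stated, so the p-values describe array-to-array spread, which may be technical.

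Autophagy encloses part of the cytoplasm in a double membrane, the autophagosome, and delivers it to the lysosome. A kinase complex starts the process, a lipid kinase complex marks the membrane, lipid carriers extend it, and 2 ubiquitin-like conjugation reactions attach the ATG8 proteins to it, to which cargo receptors bind. FOXO factors are known to induce autophagy genes, as first worked out in mouse muscle, and autophagy genes are also induced by the lysosomal regulator TFEB through E-box elements.

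For 32 of the 37 genes the RefSeq promoter table (GRCh38.p14) held a window of 250 bases before to 50 bases after the transcription start. The other 5, CALCOCO1, LAMP2, BNIP3L, UVRAG and RB1CC1, had no window and were not searched. By the p-value of the average change, CALCOCO1, LAMP2, BNIP3L and UVRAG ranked 2, 3, 6 and 9 among the 37. The motif counts therefore leave out several of the strongest responders. The motifs searched, on both strands, were the FOXO core GTAAACA, the E-box CACGTG and the extended E-box TCACGTGA, which contains the E-box. The FOXO core was found in 1 of 32 member promoters, that of CALCOCO2, against 3.41% of all 27305 promoters of the same length. The E-box was found in 4 of 32, those of ATG14, ATG3, BNIP3 and LAMP1, against 7.435% of all, and the extended form in 2 of 32, those of ATG3 and LAMP1, against 1.04%. The median GC content was 64.8% in member promoters and 58.3% in all promoters. A match is a description of letters and not a binding site. The following 5 windows are shown 5′ to 3′, with FOXO cores and E-boxes in capitals. OPTN (chr10:13099832-13100131, plus strand) and MAP1LC3B (chr16:87392086-87392385, plus strand) stand for members with large average rises and no match. CALCOCO2 (chr17:48830785-48831084, plus strand) holds a FOXO core that begins 226 bases before the start. ATG3 (chr3:112561913-112562212, minus strand) has 2 E-boxes and LAMP1 (chr13:113296989-113297288, plus strand) has 6. CALCOCO2 and LAMP1 were chosen after their sequences and values were seen.
OPTN: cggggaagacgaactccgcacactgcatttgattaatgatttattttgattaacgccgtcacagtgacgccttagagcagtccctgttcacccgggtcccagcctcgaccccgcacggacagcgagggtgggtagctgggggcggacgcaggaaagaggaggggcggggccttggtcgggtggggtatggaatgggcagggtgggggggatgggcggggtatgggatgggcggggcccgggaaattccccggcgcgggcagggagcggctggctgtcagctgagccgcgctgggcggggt
MAP1LC3B: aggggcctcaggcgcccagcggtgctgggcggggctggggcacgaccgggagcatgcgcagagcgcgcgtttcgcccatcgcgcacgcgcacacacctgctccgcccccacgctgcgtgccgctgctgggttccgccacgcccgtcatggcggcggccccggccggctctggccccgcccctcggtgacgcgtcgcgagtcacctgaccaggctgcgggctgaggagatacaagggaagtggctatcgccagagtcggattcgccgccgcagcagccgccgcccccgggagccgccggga
CALCOCO2: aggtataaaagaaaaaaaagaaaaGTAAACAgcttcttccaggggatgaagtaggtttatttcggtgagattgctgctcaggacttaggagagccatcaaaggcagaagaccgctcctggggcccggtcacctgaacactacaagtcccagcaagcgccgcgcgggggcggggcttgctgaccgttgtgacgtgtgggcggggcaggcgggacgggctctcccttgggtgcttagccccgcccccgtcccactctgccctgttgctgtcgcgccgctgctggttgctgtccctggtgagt
ATG3: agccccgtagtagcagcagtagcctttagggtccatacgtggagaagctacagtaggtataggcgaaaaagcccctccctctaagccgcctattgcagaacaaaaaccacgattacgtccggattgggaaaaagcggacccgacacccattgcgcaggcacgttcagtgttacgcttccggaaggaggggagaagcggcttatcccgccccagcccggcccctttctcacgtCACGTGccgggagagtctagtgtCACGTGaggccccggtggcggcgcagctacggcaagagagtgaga
LAMP1: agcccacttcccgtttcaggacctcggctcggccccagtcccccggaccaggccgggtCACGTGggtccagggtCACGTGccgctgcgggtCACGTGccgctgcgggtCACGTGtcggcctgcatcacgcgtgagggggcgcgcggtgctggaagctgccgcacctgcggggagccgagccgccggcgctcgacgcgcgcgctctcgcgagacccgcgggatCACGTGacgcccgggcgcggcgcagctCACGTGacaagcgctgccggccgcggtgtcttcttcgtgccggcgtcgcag

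The deposited values are log2 signals from the robust multichip average (RMA), and they had been normalised in 2 separate runs. Median signals over genes lay between 6.25 and 6.33 in the 8 arrays from L428 and KM-H2 and between 6.96 and 7.08 in the other 12, so levels are compared between lines only within a run. Precision is set by the number of arrays. Over all tested genes, replicate arrays of a group differed with an SD between 0.133 and 0.204 log2 units. Markers of the labelled cell type were checked. IRF4, a transcription factor of Hodgkin cells, averaged between 12.1 and 12.23 in the groups of UHO-1 and SUP-HD1 and between 11.13 and 11.63 in those of KM-H2 and L428, but 6.31 to 6.37 in the arrays labelled L1236. TRAF1 and CD40 were also lower there, at 5.36 to 5.43 and at 5.73 to 5.77, against 9.57 to 10.17 and 8.96 to 9.83 in UHO-1 and SUP-HD1. All 5 T cell markers, CD3D, CD3E, CD3G, CD2 and CD8A, lay between 8.56 and 12.22 in the arrays labelled L1236, against 4.69 to 7.58 in UHO-1 and SUP-HD1. FSCN1, CCL17 and FUT4 were lower in the arrays labelled L1236 too, at 7.66 to 7.69, 7.26 to 7.3 and 7.86 to 7.9. In UHO-1 and SUP-HD1 they lay at 10.21 to 11.03, 7.82 to 9.89 and 8.07 to 8.32. Other markers of the lists did not all go this way. CD30 (TNFRSF8) lay at 7.57 to 7.76 in the arrays labelled L1236, above 7.14 to 7.17 in SUP-HD1 but below 10.23 to 11.07 in UHO-1. The B cell markers CD79A, at 11.7 with 4-OHT and 9.33 with vehicle, and CD79B, at 7.13 and 7.37, were higher there than in UHO-1 and SUP-HD1, and PAX5 was lower, at 6.45 and 6.37. The arrays labelled L1236 go against their label in the T cell markers and in IRF4, TRAF1, CD40 and FSCN1, with smaller gaps in CCL17 and FUT4. The main results are also given without these arrays. Some stromal and myeloid markers moved with 4-OHT. In KM-H2 LUM reached 12.18 with 4-OHT, against 3.41 with vehicle, and DCN 6.76, against 3.37. There COL3A1 read 6.11 with 4-OHT, against 5.83, but COL1A1 6.82, against 7.44, and PDGFRB 5.1, against 5.2. Of these lists, 1 myeloid marker rose in L428, where 12% of all genes were called higher, and 1 fell in SUP-HD1, where 2.35% were called lower. In UHO-1 1 stromal marker rose, and 1 stromal and 1 myeloid marker fell, against 13.4% and 11.1% of all genes. In the arrays labelled L1236 LYZ read 7.93 with 4-OHT, against 4.27 with vehicle, and CD68 8.31, against 7.14. CD14 read 5.81 there, against 5.7, CSF1R 5.86, against 5.74, and FCGR3A 3.9, against 3.99. CD2 read 8.56 with 4-OHT in those arrays, against 9.76 with vehicle. The Hodgkin cell markers that fell numbered 4 of 7 in L428, against 17.5% of all genes, 3 in KM-H2, against 12.3%, and 2 in UHO-1, against 11.1%. In the arrays labelled L1236 0 fell, against 14.9%. In SUP-HD1 0 fell and 1 rose, against 2.35% and 3.68%. CD30 read 8.55 with 4-OHT in L428, against 10 with vehicle, and FSCN1 10.68, against 11.75. The part of these markers in the results on autophagy genes was not tested, and in bulk RNA fewer cells of a type and less RNA per cell cannot be told apart.

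Autophagy genes were mostly higher with 4-OHT on average over the 5 lines. Of the 37, 25 rose, 1 (ATG4C) fell and 11 did not pass (limma, Benjamini-Hochberg adjusted p below 0.05 over 15850 tested genes). That is 67.6% of members higher and 2.7% lower, where 17.4% of all tested genes were called higher and 21.2% lower. That balance of all genes, 2765 higher and 3357 lower, turned with cyclic loess scaling within each run to 3363 higher and 2732 lower. Changes were small. The median average change of the members was 0.13 log2 units, against -0.02 for all tested genes, and the largest rise was 0.55. Of the members 10 had a mean change above 0 in every line, against 6.75% of all genes, and 1 a mean change below 0 in every line, against 9.74%. Without the arrays labelled L1236, 25 members rose and 1 fell, where 18.2% of all genes were called higher and 21% lower, and 24 members passed in the same direction in both fits. In the 8 arrays of L428 and KM-H2 alone, 18 members rose and 1 fell, against 14% and 19.5% of all genes, and in the other 12 arrays alone 12 rose and 0 fell, against 12.6% and 12.5%. These 12 members include ULK2, which lay near background outside UHO-1. Taking each of the 5 lines as 1 replicate, limma called 0 members on average, with 9 of them at an unadjusted p below 0.05, 8 higher and 1 lower. In that fit 2 of all 15850 genes were called, and 2515 had an unadjusted p below 0.05.

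The number of members called differed by line. In L428, 18 of 37 rose and 2 fell, where 12% of all genes were called higher and 17.5% lower. In UHO-1, 16 rose and 0 fell, against 13.4% and 11.1% of all genes. In KM-H2, 9 rose and 2 fell, against 10% and 12.3%. Members were thus called higher more often than genes in general in these 3 lines. In SUP-HD1, where few genes of any kind passed, 4 rose and 0 fell, against 3.68% and 2.35%. In the arrays labelled L1236, 3 rose and 4 fell, against 8.25% and 14.9%, a share near that of all genes. Single arrays moved some of these counts by over 1.5 times: 7 members rose in UHO-1 without its vehicle replicate 2, 5 in KM-H2 without its vehicle replicate 2, 0 in SUP-HD1 without its vehicle replicate 2, and 1 fell in the arrays labelled L1236 without 4-OHT replicate 2. In those arrays 6 rose without vehicle replicate 2, and 4 fell in KM-H2 without either UHO-1 vehicle array. In L428 1 fell without any 1 of its 4 arrays, and on average 2 fell without UHO-1 4-OHT replicate 1.

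**Figure D1:**
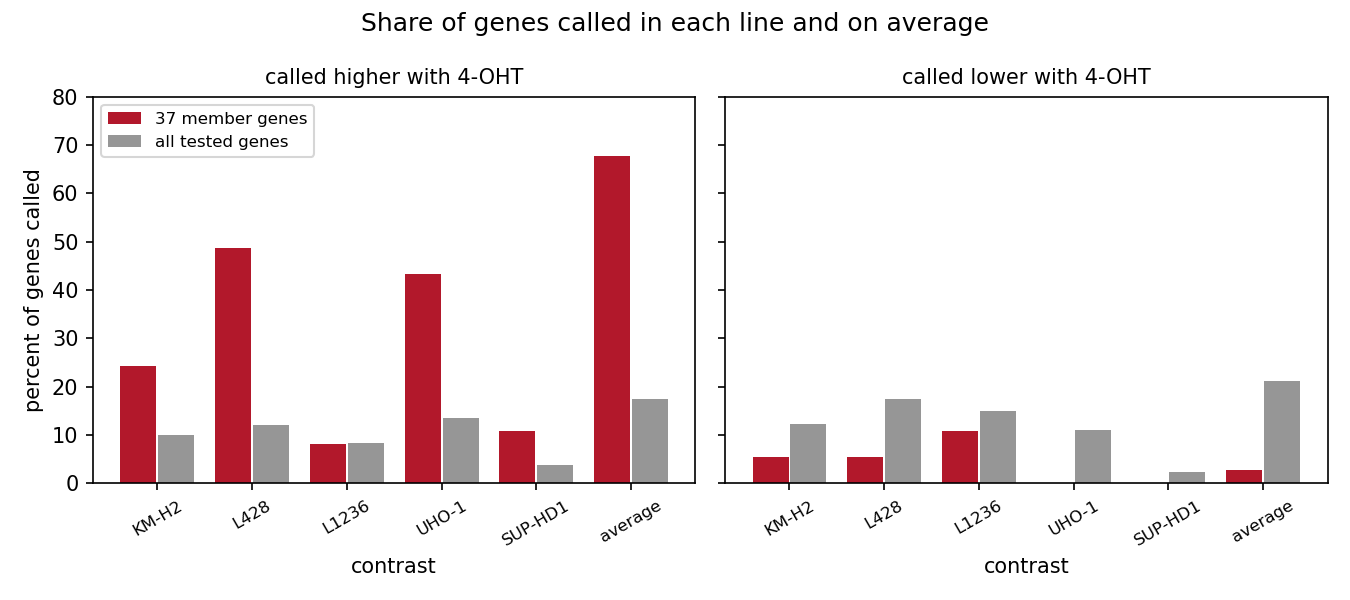
Percent of genes called higher (left) or lower (right) with 4-OHT in each line and on average, for the 37 member genes (red) and all 15850 tested genes (grey), at a limma adjusted p below 0.05. Among the lines, the red bars for rises stand highest in L428 (18 of 37 genes) and UHO-1 (16 of 37), and that of the arrays labelled L1236 (3 of 37) lies next to the grey bar.

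Averaged over the lines, cargo receptors and ATG8 genes had higher medians than conjugation genes, where 17.4% of all genes were called higher and 21.2% lower. Among 4 initiation genes 3 rose and 0 fell, with a median average change of 0.14 log2 units. Among 9 conjugation genes 4 rose and 1 fell, with a median of 0.02. Among 8 cargo receptor genes 6 rose and 0 fell, with a median of 0.18. The other roles were also mainly higher. All 3 ATG8 genes rose (median 0.24), as did 3 of 5 nucleation genes (0.10), 4 of 5 genes of membrane supply (0.12) and 2 of 3 lysosome members (0.08). Without the arrays labelled L1236 the medians were 0.14 for initiation, 0.04 for conjugation and 0.22 for cargo receptors, with 3, 4 and 7 genes rising, and -0.03 for all tested genes, of which 18.2% were called higher and 21% lower. Without L428 the cargo receptor median was 0.08, below the initiation median and above the conjugation median of the same lines. The place of cargo receptors above initiation on average thus rested on L428.

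The order of the roles was not the same in every line. The initiation medians given by line include ULK2, which lay near background outside UHO-1. In KM-H2, where 10% of all genes were called higher and 12.3% lower, the cargo receptor median was -0.05 (2 rose, 1 fell), below 0.06 for conjugation (3 rose, 1 fell) and 0.09 for initiation (0 called). In L428 cargo receptors stood at 0.48 (6 rose), initiation at 0.12 (2 rose) and conjugation at 0.01 (1 rose, 2 fell), against 12% and 17.5% of all genes. In UHO-1 the medians were 0.32 (6 rose), 0.21 (1 rose) and 0.18 (4 rose), against 13.4% and 11.1%. In SUP-HD1 they were 0.17 (2 rose), 0.08 and 0.04 (0 called), against 3.68% and 2.35%. In the arrays labelled L1236 they were 0.06 (2 rose, 1 fell), 0.03 (0 called) and -0.13 (2 fell), against 8.25% and 14.9%. The ATG8 genes had medians of 0.22 (1 rose) in KM-H2, 0.43 (3 rose) in L428, 0.21 (1 rose) in UHO-1, 0.28 (0 called) in SUP-HD1 and 0.09 (0 called) in the arrays labelled L1236. Among initiation, conjugation and cargo receptors, cargo receptors had the highest median in 4 lines and the lowest in KM-H2, a difference that was not tested.

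**Figure D2:**
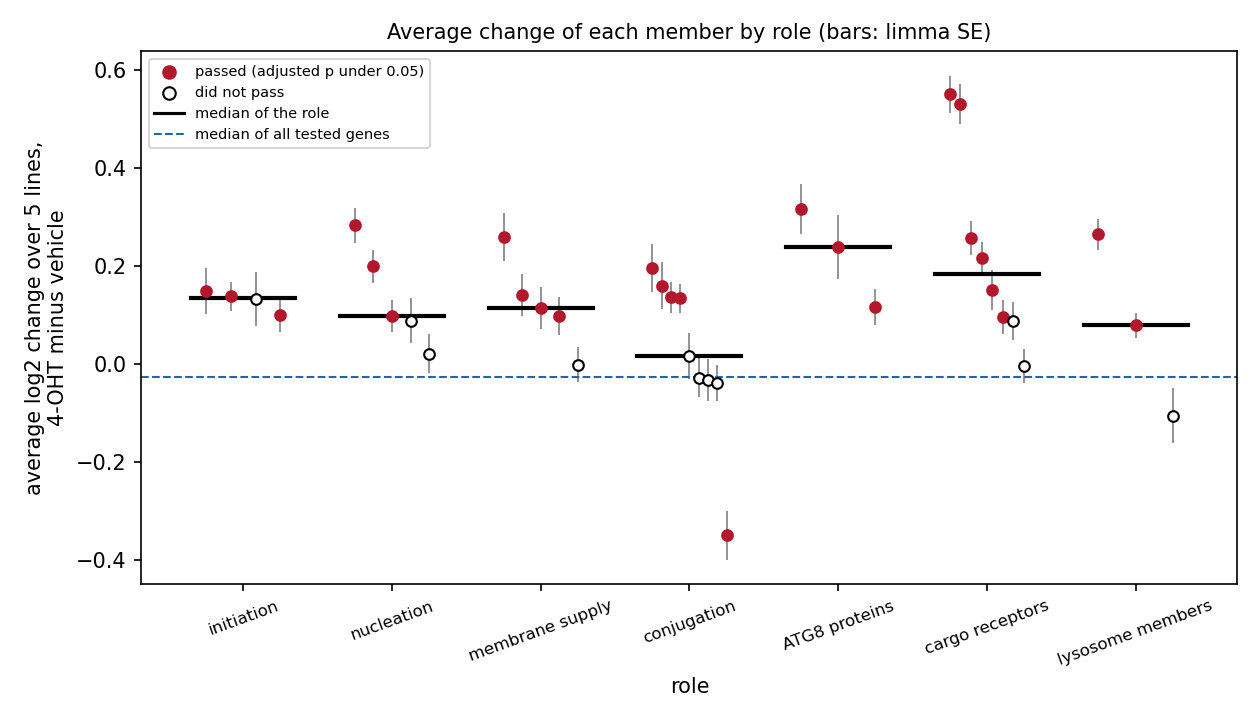
Average log2 change over the 5 lines (4-OHT minus vehicle) of each of the 37 genes, grouped by role, with limma standard errors as bars, filled points for genes that passed, the median of each role as a black line and the median of all tested genes as a dashed line. OPTN and CALCOCO1 stand above 0.5 among the cargo receptors, and ATG4C lies at -0.35 among the conjugation genes.

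**Figure D3:**
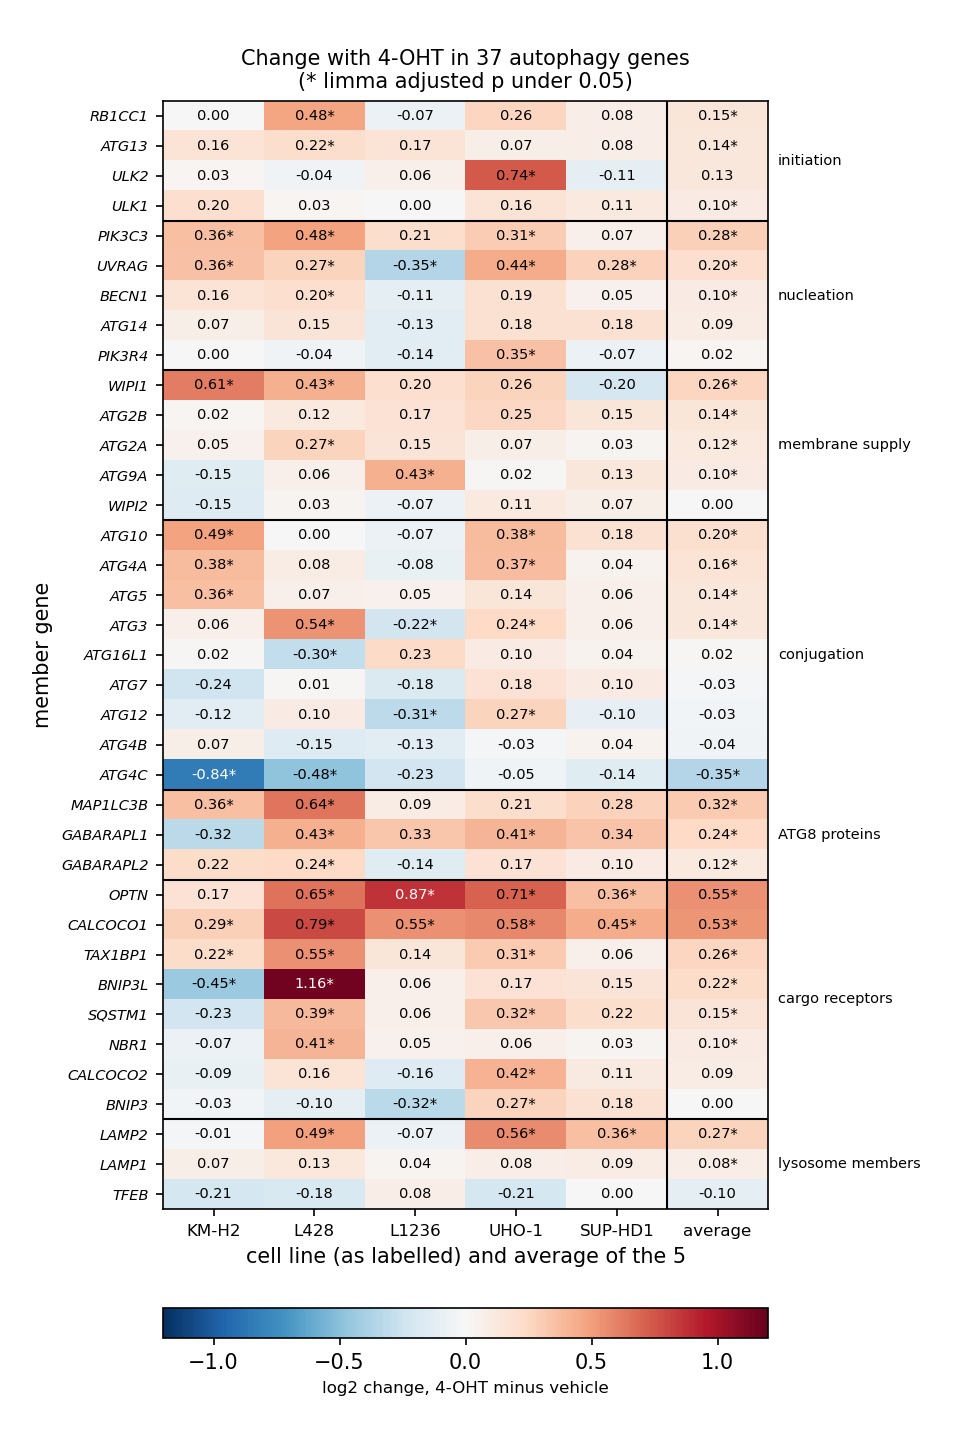
Log2 change (4-OHT minus vehicle, colour and number) of the 37 genes in each line and on average, grouped by role, with an asterisk for a limma adjusted p below 0.05. The largest rise is that of BNIP3L in L428 (1.16) and the largest fall that of ATG4C in KM-H2 (-0.84).

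The initiation genes encode the ULK kinase complex. ATG13, its regulatory subunit (probe set 7939676), had log2 signals of 8.77 and 8.69 with 4-OHT in KM-H2, against 8.57 and 8.57 with vehicle, and 8.47 and 8.52 in L428, against 8.36 and 8.20. It read 9.77 and 9.67 with 4-OHT in the arrays labelled L1236, against 9.57 and 9.54, then 9.70 and 9.68 in UHO-1, against 9.65 and 9.59, and 9.71 and 9.74 in SUP-HD1, against 9.70 and 9.59. The 4-OHT arrays lay above the vehicle arrays in each line, by small steps. ATG13 rose by 0.14 ± 0.030 on average (SE, n = 10 arrays per arm, adjusted p = 0.000709), was called in 1 line (L428, 0.22 ± 0.067, adjusted p = 0.0172) and did not pass the test of variation between lines (F test adjusted p = 0.585). The call in L428 was lost without its vehicle replicate 2 (0.14) or 4-OHT replicate 2 (0.19). It was also lost with arrays centred on their medians (0.18, adjusted p = 0.0748). RB1CC1, the scaffold subunit FIP200, rose by 0.15 ± 0.047 (0.0148), which rested on L428, at 0.48 ± 0.11 (0.00119), and was 0.07 without that line (0.345). ULK1, the main initiating kinase, rose by 0.10 ± 0.034 (0.0213), was called in no single line and was lost without KM-H2 vehicle replicate 2 (0.0517). ULK2, its paralog, did not pass on average (0.13 ± 0.055, 0.0592). Its signal stayed below 5 in both arms of 4 lines, which is near background, and it rose by 0.74 ± 0.12 in UHO-1 (0.000139), with 7.06 and 7.40 with 4-OHT against 6.42 and 6.56 with vehicle.

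Nucleation genes encode the class III PI3-kinase complexes that make the phospholipid of the growing membrane. PIK3C3, the lipid kinase VPS34 (probe set 8021015), read 7.92 and 7.82 with 4-OHT in KM-H2, against 7.59 and 7.43 with vehicle, and 8.04 and 8.13 in L428, against 7.61 and 7.60. Its 4-OHT and vehicle values were 9.38 and 9.26 against 9.03 and 9.19 in the arrays labelled L1236, 9.57 and 9.51 against 9.27 and 9.19 in UHO-1, and 10.27 and 10.26 against 10.27 and 10.13 in SUP-HD1. The arms separated in every line but SUP-HD1. PIK3C3 rose by 0.28 ± 0.035 on average (adjusted p = 8.10e-07) and was called in L428 (0.48 ± 0.079), KM-H2 (0.36 ± 0.079) and UHO-1 (0.31 ± 0.079, adjusted p = 0.00742), the last lost without UHO-1 vehicle replicate 2 (0.0767) or 4-OHT replicate 1 (0.0678).

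UVRAG, a subunit of the complex that acts on late autophagosomes and endosomes (probe set 7942626), moved in both directions. It read 9.56 and 9.48 with 4-OHT in KM-H2, against 9.12 and 9.21 with vehicle, and 9.32 and 9.24 in L428, against 9.03 and 8.99. In UHO-1 it read 10.73 and 10.79 with 4-OHT, against 10.37 and 10.27, and in SUP-HD1 9.90 and 9.89, against 9.66 and 9.57. In the arrays labelled L1236 the order was turned, with 8.98 and 8.71 against 9.13 and 9.26. The arms did not overlap in any line. UVRAG rose by between 0.27 ± 0.077 in L428 (0.00922) and 0.44 ± 0.077 in UHO-1 (0.000223) in 4 lines and fell by 0.35 ± 0.077 in the arrays labelled L1236 (0.00158), and the change varied between lines (F test adjusted p = 2.45e-05). The average rise was 0.20 ± 0.034 (5.52e-05), and it was 0.34 ± 0.031 without the arrays labelled L1236 (2.85e-08), where no variation passed (F test adjusted p = 0.296). Single arrays ended the call in those arrays (4-OHT replicate 2, -0.21) and in L428 (vehicle replicate 2 or 4-OHT replicate 1). In SUP-HD1 (0.28 ± 0.077) the call ended without vehicle replicate 2 or either 4-OHT array. There the replicate block (0.0622) and centring arrays on their medians (0.0709) also ended it. BECN1, the Beclin 1 subunit, rose by 0.10 ± 0.033 on average (0.0206), a call lost without L1236 vehicle replicate 1 (0.0506) or 4-OHT replicate 1 (0.0593) or KM-H2 vehicle replicate 1 (0.0539). ATG14, which directs the complex to the early membrane, did not pass (0.09 ± 0.045, 0.128) but rose without the arrays labelled L1236 (0.14 ± 0.041, 0.00821). PIK3R4, the regulatory subunit VPS15, did not pass on average (0.02 ± 0.040, 0.715) and rose in UHO-1 by 0.35 ± 0.088 (0.00643), which was lost without UHO-1 vehicle replicate 2 (0.0783).

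Genes of membrane supply encode lipid transfer proteins and their docking factors. WIPI1, which binds the phospholipid made by PIK3C3 (probe set 8017850), read 6.04 and 6.12 with 4-OHT in KM-H2, against 5.38 and 5.56 with vehicle, and 7.29 and 7.08 in L428, against 6.86 and 6.65. Its values were 8.13 and 8.13 against 7.79 and 8.07 in the arrays labelled L1236, 8.45 and 8.59 against 8.20 and 8.32 in UHO-1, and 9.42 and 9.24 against 9.50 and 9.56 in SUP-HD1. The 4-OHT arrays were above the vehicle arrays in 4 lines and below them in SUP-HD1. WIPI1 rose by 0.26 ± 0.048 on average (adjusted p = 0.000142), by 0.61 ± 0.11 in KM-H2 (0.000152) and by 0.43 ± 0.11 in L428 (0.00365), with an average of 0.09 in the 3 lines normalised together (0.286). The call in L428 was lost without its vehicle replicate 2 (0.0804) or 4-OHT replicate 1 (0.081). ATG2B, a lipid transfer protein, rose by 0.14 ± 0.044 (0.0124), and its second probe set changed by 0.09 on average. The call was lost without UHO-1 (0.0752), and in L428 and KM-H2 alone the change was 0.07 (0.496). ATG2A, its paralog, rose by 0.12 ± 0.042 (0.0328) but was lost in 10 of 20 fits that left out 1 array (adjusted p up to 0.0869). ATG9A, the scramblase of the vesicles that seed the membrane, rose by 0.10 ± 0.039 (0.0494), a call that rested on the arrays labelled L1236 (0.43 ± 0.087, 0.000749), without which it was 0.02 (0.786), and that 14 of 20 fits without 1 array ended (up to 0.124). WIPI2, which recruits ATG16L1, did not pass (0.00 ± 0.035, 0.992).

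Conjugation genes encode the enzymes and substrates that attach ATG8 proteins to lipid, and they did not move together. ATG4C, a protease that processes ATG8 proteins (probe set 7901895), read 7.23 and 6.98 with 4-OHT in KM-H2, against 7.95 and 7.94 with vehicle, and 6.87 and 6.78 in L428, against 7.27 and 7.34. Its values were 8.69 and 8.41 against 8.74 and 8.82 in the arrays labelled L1236, 8.33 and 8.25 against 8.45 and 8.24 in UHO-1, and 9.02 and 9.07 against 9.36 and 9.02 in SUP-HD1. The arms separated clearly in KM-H2 and L428, narrowly in the arrays labelled L1236, and overlapped in the other 2 lines. ATG4C fell by 0.35 ± 0.050 on average (adjusted p = 5.29e-06), by 0.84 ± 0.11 in KM-H2 (3.64e-06) and by 0.48 ± 0.11 in L428 (0.00175), and the mean change was below 0 in 5 of 5 lines. In the 3 lines normalised together it was -0.14 (0.131). Its paralog ATG4A rose by 0.16 ± 0.048 (0.00996), and ATG4B, whose probe sets changed by -0.04 and -0.03, did not pass (0.454).

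ATG3, the enzyme that transfers ATG8 proteins to lipid (probe set 8089527), read 11.07 and 10.97 with 4-OHT in L428, against 10.53 and 10.44 with vehicle, and 8.30 and 8.15 in KM-H2, against 8.17 and 8.15. Its values were 10.93 and 10.96 against 10.75 and 10.66 in UHO-1, 10.42 and 10.43 against 10.44 and 10.28 in SUP-HD1, and 10.03 and 9.96 against 10.18 and 10.26 in the arrays labelled L1236. The arms stood apart in L428, in UHO-1 and, with the order turned, in the arrays labelled L1236. ATG3 rose by 0.54 ± 0.067 (L428, adjusted p = 1.34e-06) and 0.24 ± 0.067 (UHO-1, 0.0145) and fell by 0.22 ± 0.067 in the arrays labelled L1236 (0.0177), and the change varied between lines (F test adjusted p = 2.01e-05). The average of 0.14 ± 0.030 (0.000871) was 0.03 without L428 (0.482) and 0.22 ± 0.033 without the arrays labelled L1236 (1.75e-05). The call in UHO-1 was lost without UHO-1 vehicle replicate 2 (0.19) or either of its 4-OHT arrays (0.25 and 0.22). That in the arrays labelled L1236 was lost without vehicle replicate 2 (-0.18) or 4-OHT replicate 2 (-0.19). It was also lost with cyclic loess (-0.12, adjusted p = 0.108). ATG3 is the member whose promoter, shown above, has E-boxes on both sides of the start.

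ATG12, the ubiquitin-like modifier joined to ATG5 (probe set 8113651), did not pass on average (-0.03 ± 0.044, adjusted p = 0.611). It read 8.45 and 8.58 with 4-OHT in UHO-1, against 8.24 and 8.25 with vehicle, and 8.17 and 7.94 in the arrays labelled L1236, against 8.35 and 8.38. Elsewhere it read 7.29 and 7.41 against 7.45 and 7.49 in KM-H2, 7.96 and 7.87 against 7.94 and 7.68 in L428, and 8.41 and 8.36 against 8.59 and 8.39 in SUP-HD1. It rose by 0.27 ± 0.098 in UHO-1 (0.0476) and fell by 0.31 ± 0.098 in the arrays labelled L1236 (0.0231), calls that 12 and 25 of 29 alternatives kept and that ended without any 1 of the 4 UHO-1 arrays (up to 0.259) and without L1236 vehicle replicate 1 or 2 or 4-OHT replicate 2 (up to 0.322). ATG5, its partner, rose by 0.14 ± 0.032 (0.0012) and by 0.36 ± 0.070 in KM-H2 (0.000409). ATG10, the enzyme that joins them, rose by 0.20 ± 0.049 (0.00256), by 0.49 ± 0.11 in KM-H2 (0.00189) and 0.38 ± 0.11 in UHO-1 (0.0151). Those line calls were lost without KM-H2 vehicle replicate 1 (0.057) and without UHO-1 vehicle replicate 2 or 4-OHT replicate 1 (up to 0.115). None of the average rises of ATG4A, ATG5 and ATG10 held without KM-H2, at adjusted p of 0.166, 0.0809 and 0.0947. ATG7, the activating enzyme of both reactions, and ATG16L1, the scaffold of the ATG12-ATG5 complex, did not pass (-0.03 ± 0.040, 0.639, and 0.02 ± 0.047, 0.81). ATG16L1 fell by 0.30 ± 0.11 in L428 (0.0378). That call was lost without any 1 of the 4 L428 arrays, with the replicate block (0.0709) and with cyclic loess (0.0579).

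All 3 ATG8 genes rose on average. MAP1LC3B, the autophagosome marker LC3B (probe set 7997740), read 6.30 and 6.42 with 4-OHT in KM-H2, against 6.09 and 5.90 with vehicle, and 6.95 and 7.22 in L428, against 6.33 and 6.56. Its values were 7.76 and 7.71 against 7.62 and 7.67 in the arrays labelled L1236, 8.71 and 8.85 against 8.67 and 8.46 in UHO-1, and 8.50 and 8.44 against 8.31 and 8.07 in SUP-HD1. The arms did not overlap in any line, which held for 7 of 37 members and for 9.67% of all genes, in either direction. MAP1LC3B rose by 0.32 ± 0.051 on average (adjusted p = 2.35e-05). The rise was 0.64 ± 0.11 in L428 (adjusted p = 0.00011) and 0.36 ± 0.11 in KM-H2 (0.0232), where the call was lost without its vehicle replicate 2 (0.237) or 4-OHT replicate 2 (0.171), and variation between lines did not pass (F test adjusted p = 0.0649). GABARAPL1, of the GABARAP branch, rose by 0.24 ± 0.066 on average (0.00542) but averaged 0.36 in the 3 lines normalised together (0.000535) and 0.05 in KM-H2 and L428 (0.781). In KM-H2 its signal was near background, with 5.09 and 4.68 with 4-OHT against 5.20 and 5.21 with vehicle. GABARAPL1 was called in L428 (0.43 ± 0.15, 0.0288) and UHO-1 (0.41 ± 0.15, 0.0463). Both calls were lost with cyclic loess (0.0527 and 0.0814), and that in L428 also with arrays centred on their medians (0.0595). Without L428 vehicle replicate 1 the change there was 0.21. GABARAPL2, its close relative, rose by 0.12 ± 0.037 (0.0133), with the smallest change of the 3, and fell short of the threshold without KM-H2 (0.0627), L428 (0.142) or UHO-1 (0.0643). Its call in L428 (0.24 ± 0.082, 0.0281) was lost with arrays centred on their medians (0.0912).

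The cargo receptors held the largest average rises of all members. OPTN, a ubiquitin-binding receptor for damaged mitochondria and bacteria (probe set 7926239), read 8.19 and 8.41 with 4-OHT in KM-H2, against 8.17 and 8.09 with vehicle, and 8.83 and 8.80 in L428, against 8.22 and 8.10. It read 8.38 and 8.22 with 4-OHT in the arrays labelled L1236, against 7.41 and 7.46, then 8.11 and 8.07 in UHO-1, against 7.33 and 7.42, and 9.86 and 9.72 in SUP-HD1, against 9.48 and 9.39. The arms did not overlap in any line, with the narrowest gap in KM-H2. OPTN rose by 0.55 ± 0.038 on average (SE, adjusted p = 8.05e-11), or 1.47-fold. OPTN and CALCOCO1 were the 2 members of 37 that rose by at least 0.5 on average, against 2.11% of all genes. It was called in the arrays labelled L1236 (0.87 ± 0.085), UHO-1 (0.71 ± 0.085), L428 (0.65 ± 0.085) and SUP-HD1 (0.36 ± 0.085, 0.0117) but not in KM-H2 (0.17 ± 0.085, 0.182). The call in SUP-HD1 was lost without its vehicle replicate 2 (0.107) or 4-OHT replicate 1 (0.209), and without the arrays labelled L1236 the average was 0.47 ± 0.041 (1.11e-08).

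CALCOCO1, a receptor for endoplasmic reticulum and Golgi (probe set 7963721), was the single member called higher in all 5 lines, against 0.334% of all genes. It read 6.74 and 6.69 with 4-OHT in KM-H2, against 6.43 and 6.42 with vehicle, and 7.29 and 7.12 in L428, against 6.38 and 6.45. Its values were 8.39 and 8.31 against 7.69 and 7.91 in the arrays labelled L1236, 9.03 and 8.97 against 8.47 and 8.36 in UHO-1, and 8.99 and 8.86 against 8.55 and 8.42 in SUP-HD1. No vehicle array reached its line's 4-OHT arrays. The rise averaged 0.53 ± 0.041, 1.45-fold (adjusted p = 4.86e-10), with 0.79 ± 0.092 in L428 and 0.29 ± 0.092 in KM-H2 (0.0251) at the ends of its range. Leaving out any 1 of the 4 KM-H2 arrays ended the call in that line (up to 0.141), and leaving out SUP-HD1 vehicle replicate 2 or 4-OHT replicate 1 ended that in SUP-HD1 (up to 0.0892).

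TAX1BP1, a receptor that works with NBR1 on protein aggregates (probe set 8131975), read 9.32 and 9.17 with 4-OHT in KM-H2, against 8.99 and 9.06 with vehicle, and 9.26 and 9.23 in L428, against 8.76 and 8.63. Its values were 9.45 and 9.42 against 9.21 and 9.37 in the arrays labelled L1236, 10.33 and 10.26 against 10.02 and 9.94 in UHO-1, and 10.31 and 10.28 against 10.35 and 10.12 in SUP-HD1. The arms separated in every line except SUP-HD1. TAX1BP1 rose by 0.26 ± 0.035 on average (adjusted p = 2.32e-06), with rises of 0.55 ± 0.077 (L428, 6.62e-06), 0.31 ± 0.077 (UHO-1, 0.00575) and 0.22 ± 0.077 (KM-H2, 0.0425). The last held in 22 of 29 alternatives and was lost without KM-H2 vehicle replicate 1 or 2 or 4-OHT replicate 1 (up to 0.37) or without SUP-HD1 4-OHT replicate 1 or 2 (up to 0.0546), and that in UHO-1 without its vehicle replicate 2 or 4-OHT replicate 1 (up to 0.0667).

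BNIP3L, the mitochondrial receptor NIX (probe set 8145454), moved most and in opposite directions. It read 10.17 and 10.01 with 4-OHT in L428, against 8.99 and 8.89 with vehicle, but 9.08 and 8.92 in KM-H2, against 9.41 and 9.48. Its values were 11.25 and 11.18 against 11.08 and 11.23 in the arrays labelled L1236, 11.21 and 11.09 against 11.00 and 10.96 in UHO-1, and 10.96 and 10.98 against 10.85 and 10.79 in SUP-HD1. The change was highest in L428 and lowest in KM-H2, with the changes of the other lines between them. BNIP3L rose by 1.16 ± 0.069 in L428 (adjusted p = 1.73e-11) and fell by 0.45 ± 0.069 in KM-H2 (3.02e-05), and both calls held in 29 of 29 alternatives. Its variation between lines had the smallest p of all members (F test adjusted p = 3.57e-10), and the average rise of 0.22 ± 0.031 (4.95e-06) was -0.02 without L428 (0.749). BNIP3, its paralog (probe set 7937079), did not pass on average (0.00 ± 0.035, 0.965). It read 10.61 and 10.59 with 4-OHT in UHO-1, against 10.39 and 10.28 with vehicle, and 9.13 and 9.13 in the arrays labelled L1236, against 9.42 and 9.49. Elsewhere its values were 7.36 and 7.14 against 7.30 and 7.26 in KM-H2, 8.35 and 8.28 against 8.44 and 8.39 in L428, and 9.84 and 9.82 against 9.76 and 9.54 in SUP-HD1. BNIP3 rose by 0.27 ± 0.078 in UHO-1 (0.0175), which was lost without its vehicle replicate 2 or either 4-OHT array (up to 0.166), and fell by 0.32 ± 0.078 in the arrays labelled L1236 (0.00363), which held in 29 of 29 alternatives.

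Of the remaining receptors, SQSTM1, the receptor p62, rose by 0.15 ± 0.041 on average (adjusted p = 0.00444), with rises of 0.39 ± 0.091 (L428, 0.00182) and 0.32 ± 0.091 (UHO-1, 0.0143), and it averaged 0.09 without L428 (0.136). Its L428 call was lost without 4-OHT replicate 2 (0.0549), and its UHO-1 call without vehicle replicate 1 (0.335) or 4-OHT replicate 2 (0.161), with quantile normalisation (0.0678) or with cyclic loess (0.0733). NBR1, which shares its domain order with p62, rose by 0.10 ± 0.035 (0.032), called in L428 alone (0.41 ± 0.078, 0.000262) and at 0.02 without that line (0.726), and 10 of 20 fits without 1 array ended the average call (up to 0.0949). CALCOCO2, the receptor NDP52 whose promoter holds the FOXO core shown above, did not pass on average (0.09 ± 0.038, 0.0752), rose by 0.42 ± 0.086 in UHO-1 (0.00126) and rose on average without the arrays labelled L1236 (0.15 ± 0.041, 0.00593).

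**Figure D4:**
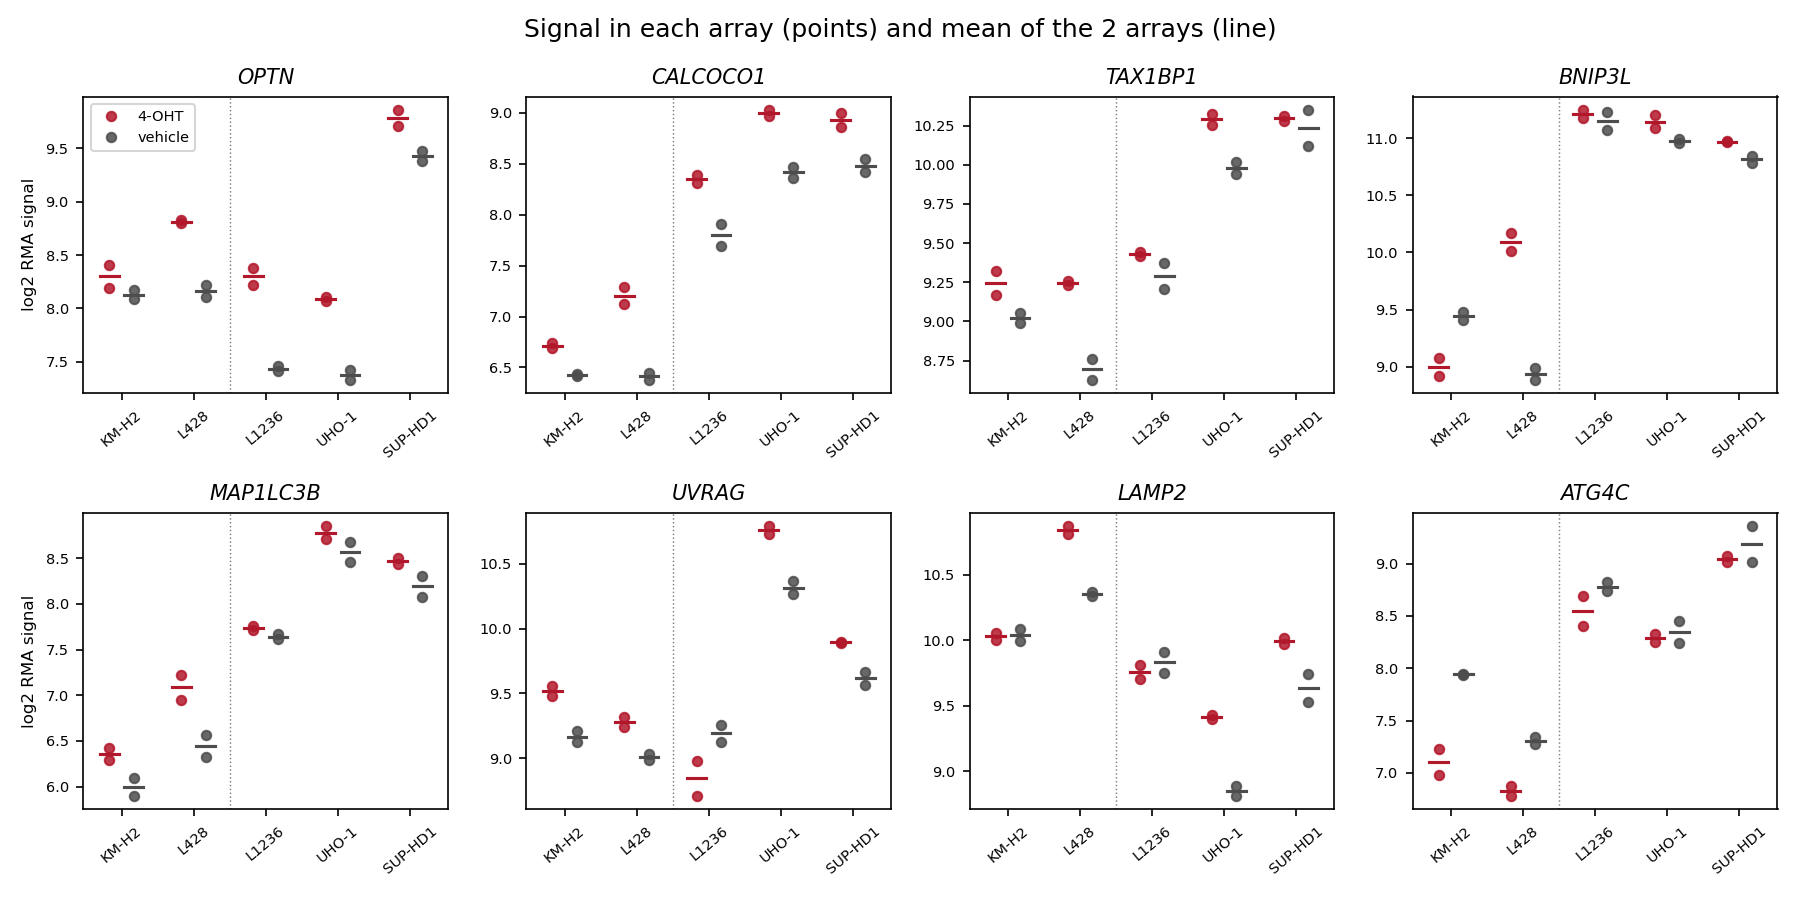
Log2 RMA signal of 8 member genes in each array (points) with the mean of the 2 arrays of a group (line), 4-OHT in red to the left of vehicle in grey for each line; the dotted line parts the 2 normalisation runs. OPTN and CALCOCO1 lie higher with 4-OHT in every line, BNIP3L lies higher in L428 and lower in KM-H2, UVRAG lies lower in the arrays labelled L1236 only, and ATG4C lies lower in KM-H2 and L428.

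Among the lysosomal members, LAMP2, a membrane protein needed for fusion with the autophagosome (probe set 8174779), read 10.87 and 10.81 with 4-OHT in L428, against 10.34 and 10.37 with vehicle, and 10.06 and 10.00 in KM-H2, against 9.99 and 10.08. Its values were 9.40 and 9.43 against 8.81 and 8.89 in UHO-1, 9.97 and 10.02 against 9.74 and 9.53 in SUP-HD1, and 9.81 and 9.71 against 9.75 and 9.91 in the arrays labelled L1236. The arms stood apart in 3 lines and overlapped in KM-H2 and in the arrays labelled L1236. The rise of LAMP2 was 0.56 ± 0.070 for UHO-1 (adjusted p = 3.51e-06), 0.49 ± 0.070 for L428 (9.18e-06) and 0.36 ± 0.070 for SUP-HD1 (0.00231), the last lost without SUP-HD1 vehicle replicate 2 (0.0707). The average rise was 0.27 ± 0.031 (3.89e-07), or 0.35 ± 0.033 without the arrays labelled L1236 (4.11e-08). LAMP1, its relative, whose promoter holds 6 E-boxes, rose by 0.08 ± 0.025 on average (0.0136), with line values from 0.04 to 0.13, none called (F test adjusted p = 0.878), and the average call was lost without L428 (0.0759) and in each normalisation run alone (0.101 and 0.145). TFEB, the regulator that acts on E-boxes of this kind, did not pass (-0.10 ± 0.056, 0.153), and its fall passed without UHO-1 4-OHT replicate 1 (-0.15, 0.0184).

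The change varied between the 5 lines for 23 of 37 members, against 42.7% of all genes (F test adjusted p below 0.05). This included all 8 cargo receptor genes, 6 of 9 conjugation genes and 2 of 4 initiation genes. One of these, ULK2, passed the filter only through UHO-1, where it is high, so its test sets UHO-1 against values near background. Without ULK2 the count was 22 of 36 members and 1 of 3 initiation genes, and the initiation median was 0.139. Without the arrays labelled L1236 variation held for 18 members, again with all 8 cargo receptor genes, against 36.4% of all genes. Called in opposite directions in different lines were 5 members, BNIP3L, UVRAG, ATG3, ATG12 and BNIP3, against 8.12% of all genes, and for all of these but BNIP3L the fall was in the arrays labelled L1236. KM-H2 and L428, normalised together, could be compared directly in a fit of their 8 arrays. The change differed between them for 11 of 37 members, against 23.2% of all genes. It was more positive in L428 for 10 of these, against 10.4% of all genes, and more negative for 1, against 12.8%. The 10 held 6 of 8 cargo receptor genes: BNIP3L (difference 1.60, adjusted p = 1.64e-07), SQSTM1 (0.62, 0.000222), CALCOCO1 (0.50, 0.014), OPTN (0.48, 0.00788), NBR1 (0.48, 0.00836) and TAX1BP1 (0.33, 0.0281). ATG10 was the member with the smaller change in L428 (-0.48, 0.0272). Of the initiation genes 1 of 4 differed between these lines and of the conjugation genes 2 of 9, and the difference between roles was not tested.

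Other genes of the pathway came from lists that hold none of the 37. Of all tested genes 17.4% were called higher on average and 21.2% lower. Of 34 other autophagy genes 32 were tested, and 14 (43.8%) rose, 2 (6.25%) fell and 16 did not pass, with a median average change of 0.03. ZFYVE1, the omegasome marker DFCP1, rose by 0.43 ± 0.035 (adjusted p = 1.29e-09), with changes from 0.19 in KM-H2 to 0.76 in L428. GABARAP, the founding member of its branch, rose by 0.16 ± 0.027 (5.42e-05), and PHB2, a mitochondrial protein that also serves as a receptor, fell by 0.17 ± 0.023 (2.47e-06). Of 33 lysosomal genes 29 were tested, and 13 (44.8%) rose, 4 (13.8%) fell and 12 did not pass, with a median of 0.06. NPC1, the lysosomal cholesterol exporter, rose by 0.39 ± 0.034 (4.66e-09) and the protease CTSB by 0.29 ± 0.033 (1.80e-07), while LIPA, the acid lipase, fell by 0.31 ± 0.031 (3.88e-08), with -0.88 in KM-H2 and 0.01 in L428. By line, 14 lysosomal genes rose and 3 fell in L428, where 12% of all genes were called higher and 17.5% lower, and 12 rose and 1 fell in UHO-1, against 13.4% and 11.1%. In KM-H2 5 rose and 5 fell, against 10% and 12.3%, in the arrays labelled L1236 4 rose and 4 fell, against 8.25% and 14.9%, and in SUP-HD1 3 rose and 0 fell, against 3.68% and 2.35%. The median of the list was 0.19 in L428, 0.17 in UHO-1 and -0.005 in KM-H2.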

How the data were processed

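RNA of the 20 samples was measured on Affymetrix Human Gene 1.0 ST arrays, per the labels. The authors deposited log2 values from RMA (robust multichip average: background correction, normalisation between arrays, summary per probe set), made in the Expression Console program, as the labels and the submitters' processing notes state. The RMA version, annotation level and genome build are not given in the sources used here. Sorted gene-level values showed 2 runs: they differed by up to 0.32 log2 units among the 8 arrays from L428 and KM-H2, by up to 0.349 among the other 12, and by 0.753 or more across these sets.

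Of 33268 probe sets, 19457 had exactly 1 gene symbol, 1751 had several and 12060 were not listed in the platform annotation. Entrez identifiers of 19426 were found in the RefSeq table and changed 0 symbols. Of 18416 genes, 15850 had a log2 value of at least 5 in at least 2 arrays and were tested. All 37 members passed, 35 of them with all 20 arrays at or above 5. Groups were taken from the sample titles. Group means were fitted to all 20 arrays with limma 3.58.1 in R 4.3.3 (lmFit, then eBayes with an intensity trend, 10 residual and 11.84 prior degrees of freedom). For each line 4-OHT minus vehicle was estimated, then the mean of the 5 lines, and a moderated F test of variation between lines. P-values are two-sided and adjusted by Benjamini-Hochberg over all tested genes of a contrast. The fit was tested on simulated data.

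The members, lists and tests were chosen with earlier results of these data known. Every member is named. Array values are given for the 12 members with the smallest adjusted p on average, the 6 with the smallest F test p and any called in opposite directions, and the 3 genes with the smallest p are named from each other list. Array values of ULK2 and GABARAPL1, given for low signals, and other single-line values were chosen after they were seen. Alternatives covered the filter, normalisation, variance model, probe sets, replicate block, single arrays, single lines and the 2 runs.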

Additional observations from a re-analysis of the deposited data

Results flagged for a closer look

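The change with 4-OHT differed between the 5 lines for 23 members in an F test of that difference (limma, adjusted over 15850 genes), as it did for 42.7% of all genes. Each is given with its adjusted p and its lowest and highest change among lines. For BNIP3L the adjusted p was 3.57e-10, with changes from -0.45 in KM-H2 to 1.16 in L428. ATG3 ranged from -0.22 in the arrays labelled L1236 to 0.54 in L428 (adjusted p = 2.01e-05). The change of LAMP2 lay between -0.07 in the arrays labelled L1236 and 0.56 in UHO-1, at an adjusted p of 2.13e-05. In the arrays labelled L1236 UVRAG changed by -0.35 and in UHO-1 by 0.44 (adjusted p = 2.45e-05). For OPTN the adjusted p was 0.000366, with changes from 0.17 in KM-H2 to 0.87 in the arrays labelled L1236. BNIP3 ranged from -0.32 in the arrays labelled L1236 to 0.27 in UHO-1 (adjusted p = 0.00111). The change of ATG4C lay between -0.84 in KM-H2 and -0.05 in UHO-1, at an adjusted p of 0.00187. In SUP-HD1 ULK2 changed by -0.11 and in UHO-1 by 0.74 (adjusted p = 0.00211). For WIPI1 the adjusted p was 0.00216, with changes from -0.20 in SUP-HD1 to 0.61 in KM-H2. SQSTM1 ranged from -0.23 in KM-H2 to 0.39 in L428 (adjusted p = 0.00305). The change of CALCOCO2 lay between -0.16 in the arrays labelled L1236 and 0.42 in UHO-1, at an adjusted p of 0.00369. In SUP-HD1 TAX1BP1 changed by 0.06 and in L428 by 0.55 (adjusted p = 0.00788). For ATG9A the adjusted p was 0.00858, with changes from -0.15 in KM-H2 to 0.43 in the arrays labelled L1236. NBR1 ranged from -0.07 in KM-H2 to 0.41 in L428 (adjusted p = 0.0116). The change of ATG12 lay between -0.31 in the arrays labelled L1236 and 0.27 in UHO-1, at an adjusted p of 0.0133. In the arrays labelled L1236 ATG10 changed by -0.07 and in KM-H2 by 0.49 (adjusted p = 0.0201). For PIK3R4 the adjusted p was 0.0202, with changes from -0.14 in the arrays labelled L1236 to 0.35 in UHO-1. GABARAPL1 ranged from -0.32 in KM-H2 to 0.43 in L428 (adjusted p = 0.0209). The change of RB1CC1 lay between -0.07 in the arrays labelled L1236 and 0.48 in L428, at an adjusted p of 0.0276. In KM-H2 ATG7 changed by -0.24 and in UHO-1 by 0.18 (adjusted p = 0.034). For CALCOCO1 the adjusted p was 0.0347, with changes from 0.29 in KM-H2 to 0.79 in L428. PIK3C3 ranged from 0.07 in SUP-HD1 to 0.48 in L428 (adjusted p = 0.0398). The change of ATG4A lay between -0.08 in the arrays labelled L1236 and 0.38 in KM-H2, at an adjusted p of 0.0417. All 5 lines had a change above 0 for OPTN, CALCOCO1, TAX1BP1 and PIK3C3, and all 5 had one below 0 for ATG4C. The other 18 had mixed signs. ULK2 was below log2 5 in both arms of 4 lines and passed the filter only through UHO-1, so no difference between lines can be read from its test.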

How the results depend on the processing

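Over 36 alternatives for each of 37 average changes, 1191 of 1332 values kept their call, 117 fell short of the threshold and 22 newly passed. In 2 values a called member changed direction, ATG9A in KM-H2 and L428 alone (-0.042) and BNIP3L without L428 (-0.016). Changes of sign in members not called were counted as kept, as for PIK3R4, which ranged from -0.061 to 0.062. Against 25 members higher on average, 16 were higher without L428 and 12 in the 3 lines normalised together, of which 15 and 11 were among the 25 and the other was ULK2. ULK2 lay near background outside UHO-1, so no average over lines can be read from its calls. With the 5 lines as replicates, where 2 of all genes were called, the counts higher and lower were 0 and 0. The count of 1 lower was 0 in the 3 lines normalised together. Fits with fewer lines found variation between lines for 11 members (L428 and KM-H2 alone) and 10 (the other 3). Members lower in KM-H2 were 4 with the runs fitted apart. Those lower in L428 were 1 with cyclic loess and 1 with the replicate block. Those higher in the arrays labelled L1236 were 7 with quantile normalisation of all arrays and 6 with cyclic loess, which left 2 lower. The initiation median was 0.098 in the 3 lines normalised together. The cargo receptor median was 0.257 without KM-H2, 0.082 without L428 and 0.262 in KM-H2 and L428 alone. The cause of these shifts was not tested. Leaving out 1 array at a time gave 22 to 27 members higher and 1 to 2 lower on average, and 18 to 26 varying. By line it gave 5 to 10 higher and 2 to 4 lower in KM-H2, 13 to 18 and 1 to 2 in L428, 3 to 6 and 1 to 5 in the arrays labelled L1236, 7 to 17 and 0 to 1 in UHO-1, and 0 to 4 higher and 0 lower in SUP-HD1. The medians lay between 0.122 and 0.141 for initiation, -0.017 and 0.052 for conjugation, and 0.167 and 0.203 for cargo receptors. A lone array was assumed to vary like the other groups. Cyclic loess turned the balance of all genes on average to 3363 higher and 2732 lower, against 2765 and 3357 as reported.

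Deviations of same-numbered arrays from their group means correlated at 0.294 in UHO-1, 0.282 in SUP-HD1, 0.037 in L428 and -0.082 in KM-H2. In the arrays labelled L1236 the correlation was -0.557, so 4-OHT arrays there tended to deviate with the vehicle array of the other number. The main fit left such sharing out. The replicate block gave 24 higher and 1 lower on average. With the numbers of L1236 crossed, an alternative added after the data were seen, the counts were 27 higher and 1 lower on average and 4 and 4 in those arrays. Leaving out each line in the test of variation, also added later, gave 17 to 24 members. Leaving ULK2 out of the initiation median, added later too, gave 0.139.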

Other observations

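Genes that restrain mTORC1, the kinase complex that blocks autophagy, were split. Of 18 genes of mTORC1 restraint and AMPK, 17 were tested, and 6 rose, 5 fell and 6 did not pass, with a median average change of -0.02. That is 35.3% higher and 29.4% lower, against 17.4% and 21.2% of all genes. The sestrins SESN3 and SESN1, stress-induced inhibitors of mTORC1, rose by 1.27 ± 0.035 (limma adjusted p = 7.99e-18) and 0.96 ± 0.044 (6.34e-14) on average. SESN3 changed by 2.71 in L428 and 1.75 in KM-H2 but by 0.20 in SUP-HD1, and SESN1 by 0.00 in the arrays labelled L1236. DDIT4, another inhibitor of mTORC1, fell by 0.35 ± 0.040 (3.04e-07).

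Hypoxia-induced genes, to which BNIP3 and BNIP3L also belong, did not move one way. Of 20 listed, 19 were tested, and 6 rose, 8 fell and 5 did not pass, with a median of -0.10. That is 31.6% higher and 42.1% lower, against 17.4% and 21.2% of all genes. The glucose transporter SLC2A1 rose by 0.41 ± 0.025 on average (1.07e-11), with 2.37 in KM-H2 and values between -0.24 and 0.23 in the other lines. PDK1, a kinase that limits pyruvate oxidation, rose by 0.39 ± 0.037 (1.36e-08) and ENO1, enolase, fell by 0.25 ± 0.019 (4.95e-10). In L428 3 of the list rose and 6 fell, where 12% of all genes were called higher and 17.5% lower, and in KM-H2 1 rose and 3 fell, against 10% and 12.3%. Of the 12 FOXO-induced targets listed, 11 rose and 0 fell on average, against 17.4% and 21.2% of all genes. The list was chosen with earlier results of these data known, so this count is not an independent test. SESN3 is counted both here and among the genes of mTORC1 restraint. FBXO32, a ubiquitin ligase subunit, changed by 5.94 in KM-H2 and 0.12 in the arrays labelled L1236, and CBLB, another ubiquitin ligase, by 3.11 in KM-H2 and 0.79 in SUP-HD1.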
